A study of Mus musculus with 16 samples.

Results

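The interleukin and interleukin receptor genes were taken as every protein-coding mouse gene whose symbol starts with Il and a digit. The rule gave 83 of 21887 protein-coding genes. Of these, 41 symbols have an r after the number and stand for receptor genes, and 42 have none and stand for ligand genes. The letter is not a perfect guide to function. Il6st, a signalling receptor subunit, and Il18bp, a soluble binding protein, lie on the ligand side, Il1rn, a receptor antagonist, lies on the receptor side, and Il4i1 and Il4i1b belong to an enzyme. A locus spanned the gene body plus 10 kb at each end, and a gene counted as occupied in a library when at least 1 bp of a peak fell in its locus.

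CUT&Tag was used to map Bcl11a and Spi1 in MPP3 cells, myeloid-biased multipotent progenitors sorted from mouse bone marrow. In CUT&Tag an antibody guides a transposase, so that DNA beside the bound factor is cut and tagged. The 16 libraries form 6 groups, which are Bcl11a in WT-iMOS at T2 (3) and T1 (3), Spi1 in KO-iMOS at T2 (2) and T1 (2), and Spi1 in WT-iMOS at T2 (3) and T1 (3). The study set out to learn how Bcl11a works in these cells. All sample titles also carry 3m. The labels leave iMOS, T1, T2 and 3m unexplained, and do not name the gene or cells that the KO concerns. They also do not tie replicates to separate animals, so p-values measure the spread between these libraries, which may be technical. Peak names begin with BMG (Bcl11a T2), BWG (Bcl11a T1), PKO (KO-iMOS T2), PWT (KO-iMOS T1), PMG (Spi1 WT-iMOS T2) and PWG (Spi1 WT-iMOS T1). Groups follow the labels, so should these prefixes stand for other groups, the values by genotype and by T would mean something else.

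Interleukins are secreted signalling proteins of immune cells, and most act through a receptor built from a ligand-binding chain and a partner chain that several receptors often share. Most of the receptors signal through Jak kinases and Stat factors, whereas those of the interleukin 1 and interleukin 17 families use adaptor proteins that lead to NF-kappaB. In bone marrow, interleukin 1 and interleukin 6 are known to push progenitors towards myeloid cells, interleukin 3 supports many progenitors, and interleukin 7 supports early lymphoid cells. Spi1, also called PU.1, is an ETS factor needed for myeloid and lymphoid cells, and Bcl11a is a zinc finger factor best known as a repressor of fetal globin genes.

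The peak lists held 2719 to 7382 peaks for Bcl11a in WT-iMOS, 6372 to 20241 for Spi1 in KO-iMOS and 5068 to 12261 for Spi1 in WT-iMOS. Read counts were not used here, so the depth behind a list is unknown. A lost peak can stand for weaker binding or for binding in fewer cells, which cannot be told apart in pooled cells. Bcl11a T1 replicates 2 and 3 stood apart from the other Bcl11a lists, with 26.5% and 30.1% of the interleukin genes occupied against 6.02% to 16.9%, so counts of genes with Bcl11a are also given without them. Peaks are not expression, so the MPP3 label could not be checked by marker levels. At the loci of the MPP3 markers Kit, Ly6a, Cd48, Cd34, Flt3, Fcgr3 and Mpo, a Spi1 peak was called in 0, 3, 2, 4, 4, 4 and 3 of 4 KO-iMOS libraries and in 2, 2, 3, 1, 6, 6 and 2 of 6 WT-iMOS libraries. A Bcl11a peak was called at these markers in 2, 2, 0, 0, 5, 6 and 0 of 6 WT-iMOS libraries. Markers of other cell types were mixed. Among T cell genes, Cd3e and Cd4 had 0 in every group and Cd3g had Bcl11a in 3 libraries and Spi1 in 3 KO-iMOS and 2 WT-iMOS libraries. Of the mast cell and basophil genes, Cpa3 and Mcpt8 had 0 and Ms4a2 had 0, 2 and 1. The B cell gene Ms4a1 had Bcl11a in 6 libraries and Spi1 in 2 KO-iMOS and 6 WT-iMOS libraries, while in the same order Cd79a had 0, 3 and 2. The erythroid gene Klf1 had 2, 4 and 4, Epor 3, 4 and 0, Hbb-bt 0, 3 and 1 and Hbb-bs 0, 2 and 2. Of the long-term stem cell genes, Mecom had 4 in each group, Slamf1 0, 4 and 1, Procr 0, 3 and 1, and Hlf 0. The part of other cell types in the results was not tested.

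A start site was in the promoter table for 66 interleukin genes, and those that met the naming rule given under processing were searched. Of the genes searched, 4 had the most libraries with a peak summit in the 300 bases from 250 before to 50 after the start. Their promoters are printed to show where peak summits fell at the start sites of Il6st, Il12rb2, Il6ra and Il6. At Il6ra most summits of the leading region lay inside the gene, beyond the printed window. The sequences are from RefSeq on GRCm38.p6 (the mm10 assembly), at chr13:112463820-112464119 (plus strand) for Il6st, chr6:67376139-67376438 (minus) for Il12rb2, chr3:89913147-89913446 (minus) for Il6ra and chr5:30012864-30013163 (plus) for Il6, each read 5′ to 3′ along the gene. Capitals mark matches to TGACCA, a short motif known for Bcl11a, or to GAGGAA, the core of the ETS site that Spi1 prefers, on either strand. GAGGAAGT, a longer form that contains GAGGAA, was searched as well.
Il6st: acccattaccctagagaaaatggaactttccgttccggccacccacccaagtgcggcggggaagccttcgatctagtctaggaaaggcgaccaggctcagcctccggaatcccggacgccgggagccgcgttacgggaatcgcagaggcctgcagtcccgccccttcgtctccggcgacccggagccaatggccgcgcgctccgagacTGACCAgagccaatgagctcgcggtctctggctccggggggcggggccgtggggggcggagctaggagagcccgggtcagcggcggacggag
Il12rb2: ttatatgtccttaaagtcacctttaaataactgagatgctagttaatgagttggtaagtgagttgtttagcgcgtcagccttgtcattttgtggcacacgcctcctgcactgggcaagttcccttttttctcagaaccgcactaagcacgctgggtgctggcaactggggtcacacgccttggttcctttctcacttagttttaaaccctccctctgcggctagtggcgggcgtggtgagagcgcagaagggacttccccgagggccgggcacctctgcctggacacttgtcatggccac
Il6ra: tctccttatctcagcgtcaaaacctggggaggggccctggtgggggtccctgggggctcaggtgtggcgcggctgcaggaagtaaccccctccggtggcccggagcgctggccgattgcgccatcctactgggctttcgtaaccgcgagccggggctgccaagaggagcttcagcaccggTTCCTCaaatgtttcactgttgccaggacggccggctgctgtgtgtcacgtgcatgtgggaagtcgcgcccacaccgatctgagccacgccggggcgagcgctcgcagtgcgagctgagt
Il6: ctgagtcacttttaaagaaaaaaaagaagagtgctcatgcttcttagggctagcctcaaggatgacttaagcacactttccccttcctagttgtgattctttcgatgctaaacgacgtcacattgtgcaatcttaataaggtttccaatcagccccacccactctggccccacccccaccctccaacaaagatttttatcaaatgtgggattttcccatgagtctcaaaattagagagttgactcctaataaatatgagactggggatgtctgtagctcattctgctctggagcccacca

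The Il6st promoter held TGACCA, which starts 42 bases before the start site. The Il6ra promoter held GAGGAA on the opposite strand, 70 bases before the start. No match to the 3 motifs was found in the windows of Il12rb2 and Il6. These motifs are common, since TGACCA was in 13.6%, GAGGAA in 28.3% and GAGGAAGT in 3.2% of 32851 RefSeq promoters of the same length. A match is a description of the letters and not a mapped binding site. Summits in the Il6st window came from 4 Bcl11a, 2 Spi1 KO-iMOS and 0 Spi1 WT-iMOS libraries. Those in the Il12rb2 window came from 3 KO-iMOS and 1 WT-iMOS Spi1 library, those in the Il6ra window from 1 KO-iMOS and 3 WT-iMOS Spi1 libraries, and those in the Il6 window from 1 KO-iMOS and 2 WT-iMOS Spi1 libraries.

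Across the family, 60 of the 83 genes had a peak in at least 1 library and 23 (27.7%) had none, against 33.4% of all protein-coding genes without any. The silent loci were 15 on the ligand side and 8 on the receptor side. They included Il2, Il3, Il5, Il21, Il25, Il33 and Il18bp on the ligand side and Il1rn, Il5ra and Il22ra1 on the receptor side. With a threshold of at least 2 libraries, Bcl11a occupied 23 of 83 genes in WT-iMOS (11 ligand and 12 receptor genes), against 25.3% of all genes. By the same rule Spi1 occupied 40 of 83 genes in KO-iMOS (18 and 22; all genes 49.8%) and 34 of 83 in WT-iMOS (15 and 19; all genes 33.5%). The 200 genes nearest in locus length to each member gave matched expectations of 21.7 genes for Bcl11a, 43.4 for Spi1 in KO-iMOS and 28.4 for Spi1 in WT-iMOS. Without Bcl11a T1 replicates 2 and 3, the Bcl11a counts were 3 ligand and 6 receptor genes, with no share over all genes computed for that reduced set.

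Split by side, the 11 Bcl11a ligand genes stood beside 9.35 expected from genes of like length and the 12 receptor genes beside 12.4. For Spi1 in KO-iMOS, 18 ligand genes stood beside 19.7 and 22 receptor genes beside 23.7. In WT-iMOS the 15 ligand genes stood beside 12.3 and the 19 receptor genes beside 16.1, so both sides of the family lay above their expectation there. Occupancy in every library of a group was rarer, with 2 of 83 genes for Bcl11a (all genes 3.54%), 17 for Spi1 in KO-iMOS (22.3%) and 13 for Spi1 in WT-iMOS (10.4%). Peaks of both factors in at least 2 WT-iMOS libraries each were found at 20 genes (all genes 19.5%), though not always in the same region of the locus. Spi1 in at least 2 and Bcl11a in 0 was found at 10 genes (7.89%), and the opposite at 3 genes, Il6st, Il17rc and Il18r1 (2.89%). Without Bcl11a T1 replicates 2 and 3 these counts were 8, 19 and 1, the last being Il6st. The shares over all genes were not computed for that reduced set, so the shift cannot be read as particular to interleukin genes.

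Library by library, the share of interleukin genes with a Bcl11a peak less that of genes of like length was -1.32 ± 3.01 percentage points (mean ± SD, n = 6), with single libraries between -5.36 and 2.74. For Spi1 in KO-iMOS the difference was -3.19 ± 3.70 points (n = 4), with the libraries between -8.12 and 0.00602. For Spi1 in WT-iMOS it was 4.84 ± 2.14 points (n = 6), with the libraries between 1.16 and 6.94. Every WT-iMOS Spi1 library was thus above its length-matched genes and above every KO-iMOS library. The gap between the genotypes narrowed when all lists were shortened to equal length, with 1.47 points in KO-iMOS against 4.003 in WT-iMOS. Locus width moved the level in both genotypes, to -8.33 in KO-iMOS against -1.06 in WT-iMOS for gene bodies alone and to 4.25 against 12.8 with 50 kb on either side. Within T2 the means were -6.01 in KO-iMOS and 6.49 in WT-iMOS, and within T1 -0.367 and 3.20. The matching was on length only, and gene density, expression and open chromatin were not matched.

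**Figure D1:**
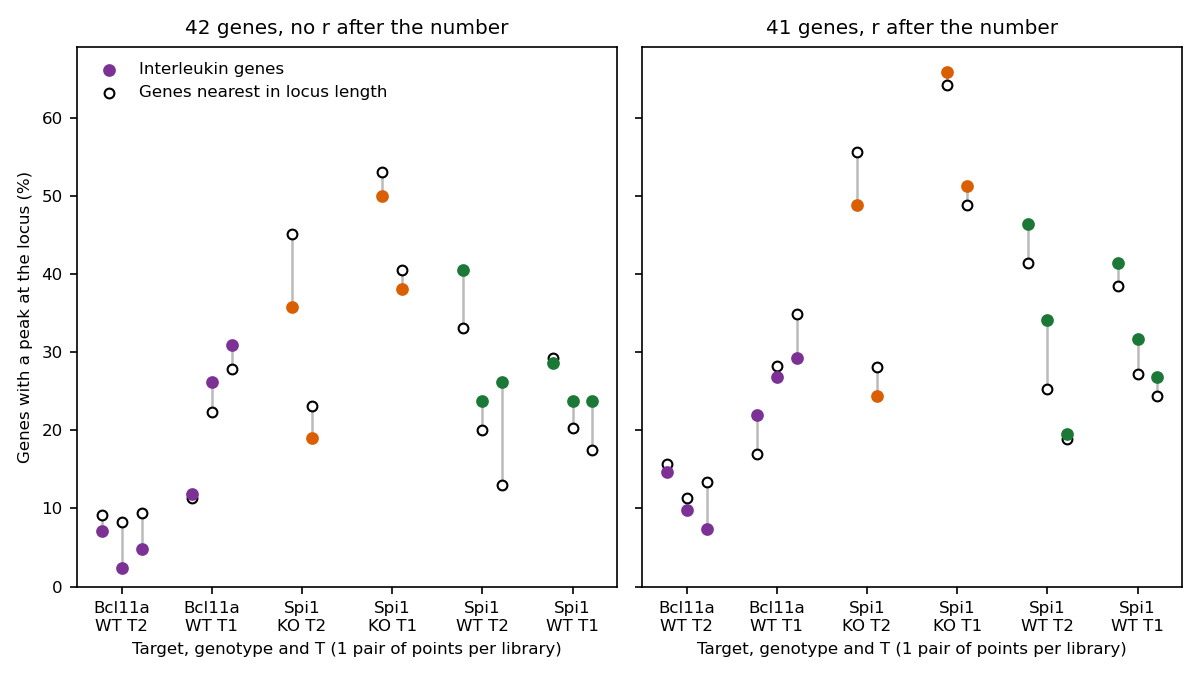
Share of the 42 interleukin genes without (left) and the 41 with (right) an r after the number that had a peak at the locus, in percent, for each of the 16 libraries. Filled points are interleukin genes and open points the mean over the 200 genes nearest in locus length to each, joined by a line, and in the WT-iMOS Spi1 libraries the filled point lies above the open one except for the left-hand genes of T1 replicate 1 (28.6% against 29.2%).

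Peaks near interleukin genes fell into 124 merged regions, of which 86 were found in at least 2 libraries. Of those 86, 41 had their summit inside an interleukin gene, 12 inside another protein-coding gene only and 33 in no protein-coding gene. A start site of a member lay within 1 kb of 9. Several leading regions had their summit inside a neighbouring gene. The leading region of Il17c, a ligand made by epithelia, lay inside Cyba, a phagocyte oxidase subunit. That of Il23a lay inside Pan2, that of Il27 inside Cln3, that of Il4i1b inside Atf5 and that of Il12rb1 inside Mast3. The leading region of Il22ra2, a soluble decoy receptor, lay 3280 bp from Ifngr1, a chain of the interferon gamma receptor. The neighbours Il4 and Il13 shared a region called in 2 KO-iMOS libraries, and Il4i1 and Il4i1b, overlapping genes, shared another. Which gene a region belongs to cannot be read from peaks.

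Among the ligands, Il1b, Il16, Il17c and Il27 had Spi1 in every library of both genotypes. Il1b encodes the inflammatory cytokine interleukin 1 beta. Bcl11a was called there in 0 of 6 WT-iMOS libraries, and Spi1 in 4 of 4 KO-iMOS libraries and 6 of 6 in WT-iMOS. The leading region, chr2:129373086-129373968 on GRCm38, lay 2394 bp from the gene. Its deposited fold enrichment, the peak caller's ratio of signal to local background, was 11.9 and 7.86 in KO-iMOS T2, 12.5 and 12.7 in KO-iMOS T1, 11.3, 10.6 and 10.4 in WT-iMOS T2, and 11.7, 7.18 and 8.46 in WT-iMOS T1. These folds are the authors' own per-peak values and are used to describe peaks within a list, not to test change between lists. Within each list the peak ranked high, between the 87.2nd and 99.1st percentile of the deposited −log10 p in KO-iMOS and between the 85.9th and 96.8th in WT-iMOS. Regions 4323 and 9757 bp from the gene were each called in 2 KO-iMOS and 5 WT-iMOS libraries.

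Il16, which encodes a chemoattractant for CD4+ cells, had the same counts, with Bcl11a in 0 and Spi1 in 4 of 4 KO-iMOS libraries and 6 of 6 in WT-iMOS. Its leading region lay inside the gene at chr7:83720273-83720911 and was called for Spi1 in 3 KO-iMOS and 6 WT-iMOS libraries. Il1a, the gene of interleukin 1 alpha, had Bcl11a in 2 libraries and Spi1 in 4 KO-iMOS and 5 WT-iMOS libraries. Il17c, and Il27, which encodes a cytokine subunit that pairs with Ebi3, had Bcl11a in 2 and Spi1 in 4 KO-iMOS and 6 WT-iMOS libraries. Il23a, the specific subunit of interleukin 23, had Bcl11a in 2 and Spi1 in 4 and 5. At Il1a, Il23a, Il27, Il4i1, Il4i1b and Il10 the Bcl11a peaks came from T1 replicates 2 and 3. Il6, the gene of interleukin 6, had Bcl11a in 0 libraries and Spi1 in 2 of 4 KO-iMOS libraries and 3 of 6 in WT-iMOS, at the promoter printed above.

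Il34 and Il17a were occupied by Spi1 in every WT-iMOS library and in no KO-iMOS library. Il34 encodes a ligand of the macrophage colony-stimulating factor receptor. Its leading region lay inside the gene at chr8:110798946-110799428, 6825 bp from the nearer gene end. Bcl11a was called in it in all 6 libraries, with folds of 7.74, 5.79 and 5.34 at T2 and 6.87, 6.46 and 6.51 at T1. Spi1 was called in 0 of 4 KO-iMOS and in 6 of 6 WT-iMOS libraries, with WT-iMOS folds of 5.41, 6.24 and 6.08 at T2 and 5.07, 5.80 and 5.36 at T1. No KO-iMOS list had a peak anywhere at the locus. With lists of equal length the KO-iMOS minus WT-iMOS difference in share was -0.333, where all peaks gave -1. Genome-wide, 155 of 34234 merged regions (0.453%) were called in all 12 WT-iMOS libraries of both factors and in no KO-iMOS library, and the Il34 region was the only 1 of them at an interleukin locus. Of the 634 regions in all 12 WT-iMOS libraries, those 155 made up 24.4%. Counted by gene, 41 genes (0.187%) had that pattern.

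Il17a encodes the main cytokine of Th17 cells. Its leading region lay outside the gene at chr1:20743883-20744301, 9628 bp away and so near the edge of the locus. Bcl11a was called there in 0 of 3 T2 and 3 of 3 T1 libraries, with T1 folds of 5.24, 6.86 and 6.54. Spi1 was called in 0 of 4 KO-iMOS libraries and in 6 of 6 WT-iMOS libraries, with folds of 5.15, 5.28 and 5.68 at T2 and 8.85, 6.79 and 5.43 at T1. With all 6 Spi1 WT-iMOS and 0 KO-iMOS libraries as the pattern, 338 regions (0.987%) were found, 2 of them at interleukin loci, those of Il34 and Il17a. Il22, a cytokine that acts on epithelia, had Bcl11a in 4 of 6 libraries and Spi1 in 0 of 4 KO-iMOS libraries and 3 of 6 in WT-iMOS, all in a region 4494 bp from the gene. Il17b had Spi1 in 3 of 6 WT-iMOS libraries only, within Pcyox1l.

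**Figure D2:**
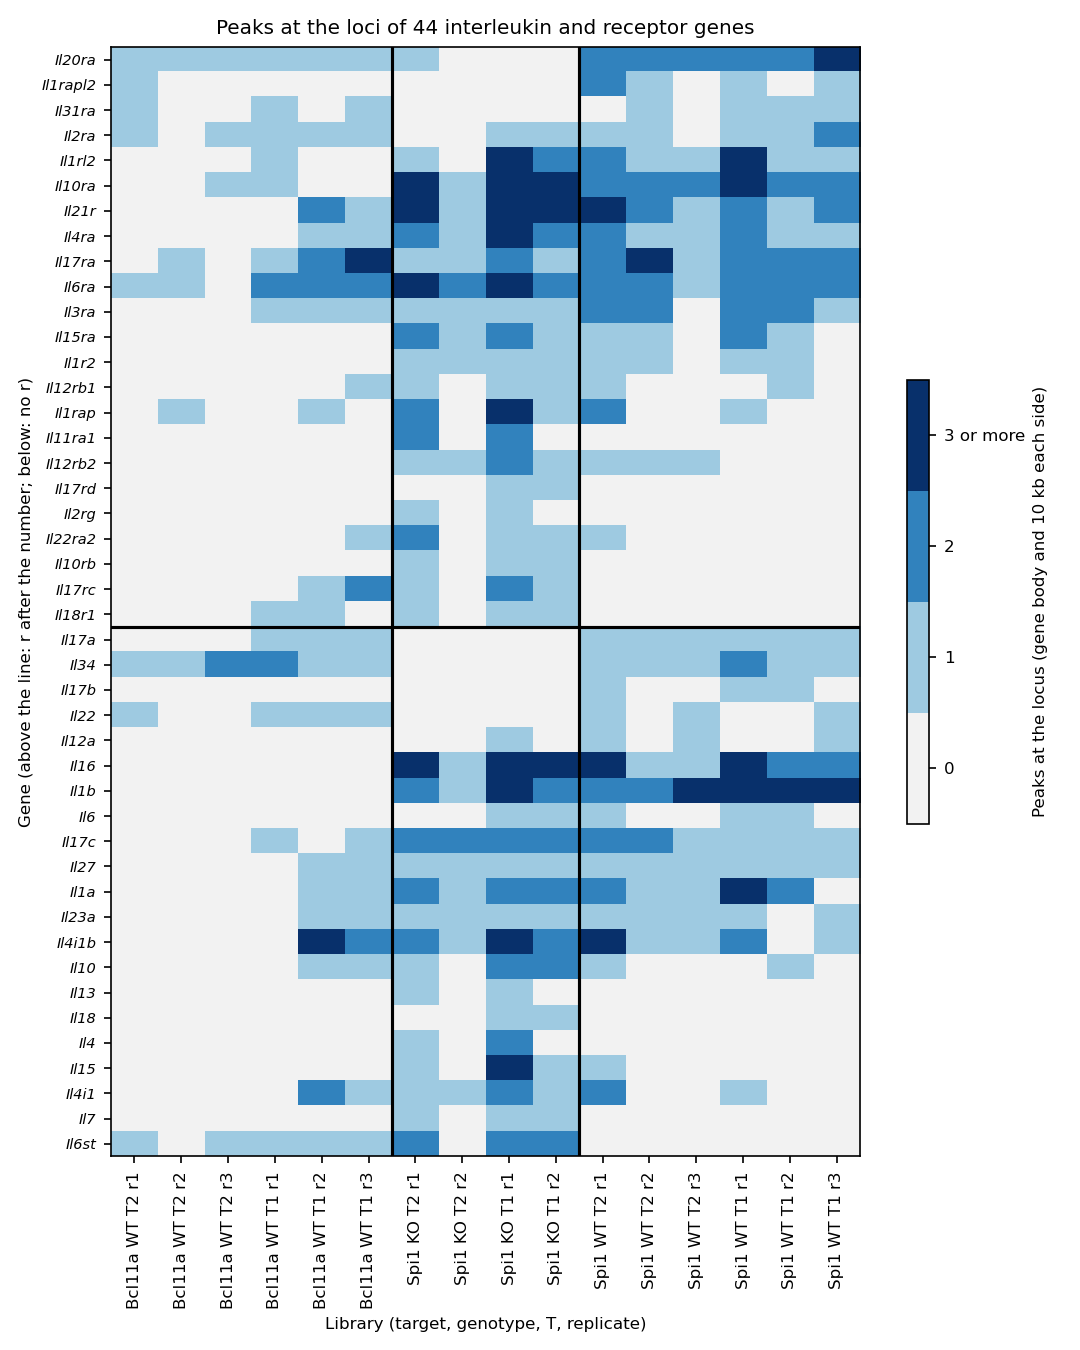
Number of peaks at the locus (gene and 10 kb at each end; 0, 1, 2, 3 or more) of the 44 interleukin and receptor genes that met the naming rule, in each of the 16 libraries, with Bcl11a WT-iMOS, Spi1 KO-iMOS and Spi1 WT-iMOS libraries separated by lines. Il34 and Il17a are blank in all 4 KO-iMOS columns, and Il1b and Il16 are blank in all 6 Bcl11a columns.

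Among the receptors, Il6ra, the ligand-binding chain for interleukin 6, and Il17ra, the shared chain of the interleukin 17 receptors, carried both factors. Il6ra had Bcl11a in 5 of 6 libraries and Spi1 in 4 of 4 KO-iMOS libraries and 6 of 6 in WT-iMOS. Its leading region, chr3:89912441-89913408, spanned the start site. A further region inside the gene, chr3:89911098-89911756, had Bcl11a in 3 and Spi1 in 3 KO-iMOS and 6 WT-iMOS libraries. Il17ra had Bcl11a in 4 and Spi1 in 4 KO-iMOS and 6 WT-iMOS libraries, and its leading region at chr6:120466313-120467382 lay inside the gene. There the folds were 3.72 in 1 T2 library and 3.99, 4.26 and 4.32 at T1 for Bcl11a, 6.50 to 8.23 for Spi1 in KO-iMOS and 4.97 to 7.0002 for Spi1 in WT-iMOS.

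Il4ra, Il21r and Il10ra had Spi1 in every library of both genotypes and Bcl11a in 2 of 6. Il4ra, the chain for interleukins 4 and 13, was occupied inside the gene at chr7:125555263-125556174. Spi1 folds there were 10.1 and 5.29 in KO-iMOS T2, 9.80 and 10.1 in KO-iMOS T1, 10.1, 9.06 and 7.62 in WT-iMOS T2, and 10.1, 10.1 and 7.02 in WT-iMOS T1. The Bcl11a folds were 4.84 and 5.25, in T1 replicates 2 and 3. Its neighbour Il21r, the receptor of interleukin 21, had Spi1 in all 10 libraries at chr7:125599395-125600087, between the 2 genes, with folds of 5.12 to 6.46 in KO-iMOS and 5.94 to 6.94 in WT-iMOS. At Il10ra, the binding chain for interleukin 10, the leading region chr9:45245829-45246588 lay inside BC049352, with Spi1 folds of 7.07 to 10.6 in KO-iMOS and 7.85 to 11.6 in WT-iMOS. Both Bcl11a peaks at Il10ra lay in a region without Spi1, chr9:45279013-45279391, 10006 bp from the gene. Il3ra, the binding chain for interleukin 3, had Bcl11a in 0 of 3 T2 and 3 of 3 T1 libraries and Spi1 in 4 of 4 KO-iMOS libraries and 5 of 6 in WT-iMOS. The Spi1 peaks at Il3ra lay in 2 regions. The leading one had Spi1 in 4 KO-iMOS and 4 WT-iMOS libraries. The other, inside the gene at chr14:14349271-14350084, had Spi1 in 0 KO-iMOS and 5 WT-iMOS libraries and Bcl11a in 0. Il1r2, a decoy receptor for interleukin 1, and Il15ra, the chain that presents interleukin 15, had Bcl11a in 0 and Spi1 in 4 of 4 and 4 of 6.

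Il20ra, a chain of the interleukin 20 receptor, had Bcl11a in 6 of 6 libraries and Spi1 in 1 of 4 KO-iMOS libraries and 6 of 6 in WT-iMOS. The shared region, chr10:19705091-19706217, lay 6175 bp from the gene. Its Bcl11a folds were 4.67 to 8.30 and its Spi1 folds 4.20 in the single KO-iMOS library and 4.62 to 6.92 in WT-iMOS. A region inside the gene, chr10:19738092-19738945, was called for Spi1 in 4 WT-iMOS libraries alone. Il31ra, a receptor chain related to gp130, had Bcl11a in 3 of 6 libraries and Spi1 in 0 of 4 KO-iMOS libraries and 4 of 6 in WT-iMOS inside the gene. Il2ra, the alpha chain of the interleukin 2 receptor, had Bcl11a in 5 and Spi1 in 2 KO-iMOS and 5 WT-iMOS libraries, but both KO-iMOS peaks lay in another region than the Bcl11a peaks. Of regions with at least 3 Bcl11a, at least 3 Spi1 WT-iMOS and 0 KO-iMOS libraries there were 1005 genome-wide (2.94%) and 5 at interleukin loci, those of Il34, Il17a, Il22, Il31ra and Il2ra.

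Il6st encodes gp130, the signalling chain shared by the receptors of interleukin 6 and its relatives. It was the interleukin gene with Bcl11a in most libraries where Spi1 was not called in WT-iMOS. Bcl11a was called in 5 of 6 libraries, and Spi1 in 3 of 4 KO-iMOS libraries and 0 of 6 in WT-iMOS. The region chr13:112463738-112464266 spans the start site in the printed promoter. Its Bcl11a folds were 6.08 and 6.32 at T2 and 4.88, 4.64 and 5.94 at T1, and its KO-iMOS Spi1 folds were 5.36 at T2 and 4.17 and 6.51 at T1. Il12rb2, the signalling chain of the interleukin 12 receptor, had Bcl11a in 0 of 6 libraries and Spi1 in 4 of 4 KO-iMOS libraries, and in WT-iMOS in 3 of 3 T2 and 0 of 3 T1 libraries. At its start-site region, chr6:67375705-67376562, the folds were 12.5 and 8.03 in KO-iMOS T2, 11.2 and 11.0 in KO-iMOS T1 and 5.15, 5.99 and 6.75 in WT-iMOS T2.

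**Figure D3:**
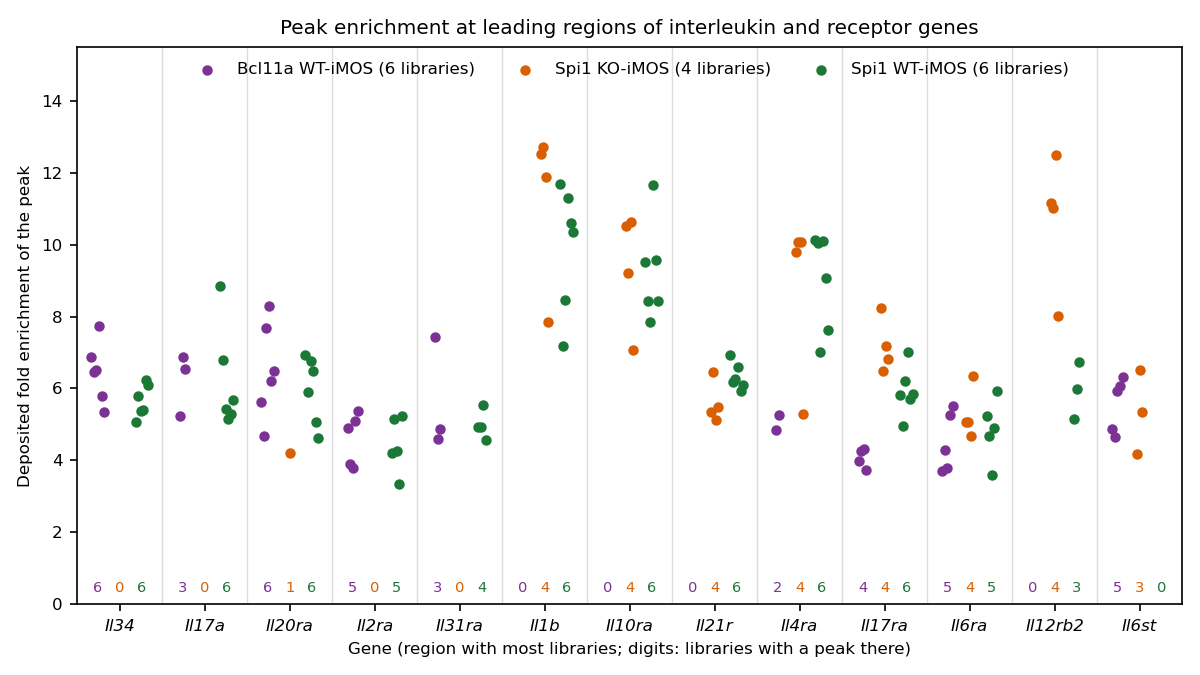
Deposited fold enrichment (ratio to the peak caller's local background, linear axis from 0) of peaks in the leading region of 13 interleukin and receptor genes, with a point for each library that has a peak there (its highest), coloured by factor and genotype. Digits at the bottom give the number of libraries with a peak there, of 6 for Bcl11a WT-iMOS, 4 for Spi1 KO-iMOS and 6 for Spi1 WT-iMOS, and Il34 stands at 6, 0 and 6.

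The question of how Spi1 occupancy differs between KO-iMOS and WT-iMOS was tested gene by gene on the number of libraries with a peak. Fisher's exact test, adjusted by Benjamini-Hochberg over 21887 genes, called 0 genes higher (0%) and 0 lower (0%) in KO-iMOS, interleukin genes included, and the smallest adjusted p was 0.264. The exact p cannot go below 0.00476 with 4 and 6 libraries, so a small number of changed genes could not pass. The share of occupied libraries was at least 0.5 higher in KO-iMOS at 15 interleukin genes, 7 on the ligand and 8 on the receptor side, or 18.1% against 22.5% of all genes. It was at least 0.5 lower at 7 genes, 4 ligand and 3 receptor, or 8.43% against 2.12% of all genes. The median difference in share was 0 for the 83 genes and 0 for all genes, and the means were 0.110 and 0.176.

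At an unadjusted p under 0.05 by Fisher's exact test, 5 interleukin genes stood higher in KO-iMOS, against 1829 (8.36%) of all genes, and 3 lower, against 194 (0.886%). The 5 were Il6st, Il7, Il10rb, Il17rc and Il18r1, each occupied by Spi1 in 3 of 4 KO-iMOS libraries and 0 of 6 in WT-iMOS (exact p = 0.0333, adjusted p = 0.487). Il7 encodes the lymphoid growth factor interleukin 7, Il10rb the shared partner chain of the interleukin 10 family, Il17rc a partner of Il17ra, and Il18r1 the binding chain for interleukin 18. In each of the 5 the library without a peak was T2 replicate 2 of KO-iMOS, whose list of 6372 peaks was the shortest of that genotype. The 3 lower genes were Il34 and Il17a (0 of 4 against 6 of 6, exact p = 0.00476, adjusted p = 0.264) and Il20ra (1 of 4 against 6 of 6, exact p = 0.0333, adjusted p = 0.487). At Il34 and Il17a the counts were 0 of 2 against 3 of 3 within T2 and within T1 alike. None of these genes passed the adjustment. Equal list lengths gave a KO-iMOS minus WT-iMOS difference in share of -0.167 at Il17a, where all peaks gave -1, and of -0.5 at Il20ra, where all peaks gave -0.75. At the 5 higher genes the difference was 0 with lists of equal length. With 50 kb on either side it stayed at -1 for Il34 and Il17a and was 0 for Il20ra and Il6st.

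**Figure D4:**
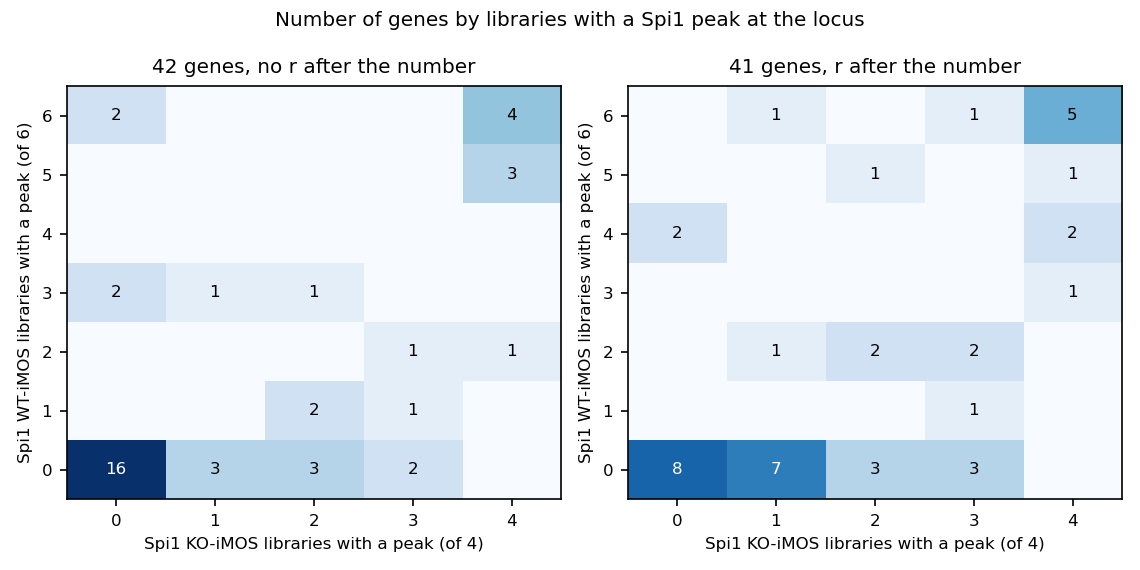
Number of interleukin genes by how many Spi1 libraries had a peak at the locus, with KO-iMOS libraries (of 4) on the horizontal and WT-iMOS libraries (of 6) on the vertical axis, for the 42 genes without (left) and the 41 with (right) an r after the number. The upper right corner holds the 4 and 5 genes occupied in every library, and the upper left corner of the left panel holds Il34 and Il17a.

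Bcl11a and Spi1 were compared in WT-iMOS in the same way. Fisher's exact test called 0 genes higher (0%) and 0 lower (0%) for Bcl11a after adjustment, with a smallest adjusted p of 0.162 and a smallest possible exact p of 0.00216. The share of libraries was higher by at least 0.5 for Bcl11a at 1 interleukin gene, Il6st, against 2.28% of all genes, and lower by at least 0.5 at 19, against 12.3% of all genes. The 19 were 11 on the ligand side, among them Il1a, Il1b, Il6, Il12a, Il16, Il23a and Il27, and 8 on the receptor side, among them Il1r2, Il4ra, Il10ra, Il12rb2, Il15ra and Il21r. Without Bcl11a T1 replicates 2 and 3 the counts were 1 higher and 20 lower, with no share over all genes computed for that reduced set. Il6st had a peak in 5 Bcl11a and 0 Spi1 libraries (exact p = 0.0152). Il1b and Il16 had 0 and 6 (exact p = 0.00216), and Il1rl2, the receptor of the interleukin 36 cytokines, 1 and 6 (exact p = 0.0152). An unadjusted p under 0.05 was thus reached by 1 interleukin gene in the higher direction (59 of all genes, 0.27%) and 3 in the lower (798 of all genes, 3.65%). The Bcl11a lists averaged 4740 peaks and the WT-iMOS Spi1 lists 8159, and with lists of equal length the Bcl11a difference at Il17a and Il4i1b changed sign. It remained -1 at Il1b and was -0.5 at Il16 and 0.667 at Il6st, where all peaks gave 0.833. Counting gene bodies alone left a difference of 0 at Il1b, whose regions lie outside the gene.

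T2 was compared with T1 over all 16 libraries by an exact test stratified by factor and genotype. It called 0 genes higher (0%) and 0 lower (0%) after adjustment, with a smallest adjusted p of 1. No interleukin gene was occupied at T2 in a share of libraries at least 0.5 higher (all genes 0.215%), and 2 had a share lower by as much (all genes 3.41%). Il2ra had Bcl11a in 2 of 3 T2 and 3 of 3 T1 libraries, and Spi1 in 0 of 2 and 2 of 2 in KO-iMOS and 2 of 3 and 3 of 3 in WT-iMOS (exact p = 0.0833, adjusted p = 1). Its sign changed with lists of equal length. Il3ra had Bcl11a in 0 of 3 T2 and 3 of 3 T1 libraries, and Spi1 in 2 of 2 at each T in KO-iMOS and 2 of 3 and 3 of 3 in WT-iMOS (exact p = 0.05, adjusted p = 1). Over the family 4 genes (4.82%) were higher and 42 (50.6%) lower at T2, against 10.4% and 41.9% of all genes, so the lean to lower shares was also genome-wide. The median difference was -0.125 for the family and 0 for all genes, and the means were -0.102 and -0.0804. No interleukin gene had an unadjusted p under 0.05 in either direction, against 9 of all genes (0.0411%) in the higher and 194 (0.886%) in the lower direction.

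Genes that act beside the interleukins were read from a list of 40, which holds further receptor chains and ligands, Jak and Stat genes, adaptors and feedback inhibitors. At least 2 libraries had a peak at 18 of them (45.0%, all genes 25.3%) for Bcl11a, 30 (75.0%, all genes 49.8%) for Spi1 in KO-iMOS and 22 (55.0%, all genes 33.5%) for Spi1 in WT-iMOS, without matching on length, and 0 passed the adjusted test in any comparison. Csf2rb, the chain that interleukins 3 and 5 share with GM-CSF, had Bcl11a in 0 and Spi1 in 4 of 4 KO-iMOS libraries and 6 of 6 in WT-iMOS, the counts of Il1b and Il16. Clcf1, a cytokine related to interleukin 6, had Bcl11a in 5 and Spi1 in 4 and 6. Lifr, which pairs with gp130, Crlf2, the receptor of TSLP, and Ptpn6, a phosphatase that dampens cytokine signals, each had Bcl11a in 3 and Spi1 in 4 and 6. Stat3, which gp130 activates, had Bcl11a in 6 and Spi1 in 3 of 4 KO-iMOS libraries and 4 of 6 in WT-iMOS. Socs2, a feedback inhibitor, had Spi1 in 4 of 4 KO-iMOS libraries and 0 of 6 in WT-iMOS (exact p = 0.00476, adjusted p = 0.264), and Jak3, Stat5b and Traf3ip2 in 3 and 0 (exact p = 0.0333, adjusted p = 0.487). These were 4 of the 40 with an unadjusted p under 0.05 in that direction, against 8.36% of all genes.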

How the data were processed

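CUT&Tag libraries were made from sorted MPP3 cells with a kit, per the labels' protocols, and grouped by factor (title) and by genotype and T (genotype label). Peaks came from each library separately, as 1 list per library that the authors deposited. The submitters' processing notes name Bowtie2, SAMtools, MACS2 and the build mm10, with no versions, and do not name a control for peak calling. A deposited line holds the peak caller's score, its fold enrichment as a ratio, −log10 p, −log10 q and the summit offset. Every deposited −log10 q was above 2. Depth is unknown, which leaves no basis for counting intervals, and list length can follow sequencing depth. No pair of lists shared more than 58 identical intervals.

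Of 131939 peaks, the 130097 on assembled chromosomes were used. Genes came from an annotation table on GRCm38.p6, which gives gene starts and ends but no exons or UTRs. Peaks that overlapped by 1 bp or more, over all libraries, were merged into 34234 regions, and a region's position is that of its median summit. Presence of a peak was compared by two-sided exact tests over 21887 genes (Benjamini-Hochberg, threshold 0.05). The test of KO-iMOS against WT-iMOS and the stratified test of T2 against T1 were checked on simulated data, the others not. The members and lists were chosen with earlier results of these data known. Genes were named when Bcl11a was called in at least 3 or Spi1 in at least 4 WT-iMOS or 3 KO-iMOS libraries, or when a share differed by at least 0.5; members outside this rule that are named were chosen after their values were seen. The leading region of a gene is the one with most libraries. Alternatives changed the peak filter, list length, locus width, overlap rule, strata and libraries. Software was Python 3.11.15, matplotlib 3.10.9, pandas 2.3.3, numpy 2.4.6 and scipy 1.17.1.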

Additional observations from a re-analysis of the deposited data

Results flagged for a closer look

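The share of ligand-side genes with a Spi1 peak was 40.5% in WT-iMOS T2 replicate 1, against 23.8% to 28.6% in the other 5 Spi1 WT-iMOS libraries, a gap wide enough to set that library apart. Its list was also the longest of the group, with 12261 peaks, and the part of list length in the gap was not tested. Genes of like length were also at their highest of the group in that library, at 33.0%. The ligand-side difference from them was 7.44 percentage points there, within the range of -0.631 to 13.2 over the group. In 21 groups of values examined this way, chance sets a library apart in about 1 of 20.

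The share of interleukin genes less that of genes of like length moved in opposite directions between T2 and T1. T2 minus T1 was -4.48 percentage points for Bcl11a in WT-iMOS (T2 -3.56, T1 0.920), -5.64 for Spi1 in KO-iMOS (T2 -6.01, T1 -0.367) and 3.29 for Spi1 in WT-iMOS (T2 6.49, T1 3.20). Every T2 library lay below every T1 library in both groups with a negative difference, and every T2 library lay above every T1 library for Spi1 in WT-iMOS. The difference between the groups was not tested. Mean list length at T2 and T1 was 3597 and 5882 peaks for Bcl11a and 10627 and 16647 for Spi1 in KO-iMOS. It was 8066 and 8252 for Spi1 in WT-iMOS. These differences by T were not computed with lists of equal length or without Bcl11a T1 replicates 2 and 3.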

How the results depend on the processing

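The 3 tests called 0 genes in every alternative run. The runs within T1 or T2 alone could not call any gene, since so few libraries leave no exact p under 0.05. With the replicate number as a block they also called 0. For KO-iMOS against WT-iMOS that run could not call any gene, since its blocks leave no exact p under 0.05. In the other comparisons each block holds a single pair of libraries. The exact p is then limited, and a small number of changed genes could not pass the adjustment there either. Deviations of same-numbered libraries correlated at -0.00736 to 0.175 for KO-iMOS and WT-iMOS (4 pairs), and those of other numbers at -0.175 to 0.112. For Bcl11a and Spi1 the ranges were -0.110 to 0.00156 (6 pairs) and -0.0189 to 0.107. For T2 and T1 they were 0.00111 to 0.258 (8 pairs) and -0.242 to 0.0501. A library correlated best with its own number in 5 of 8, 0 of 12 and 12 of 16 cases. Same numbers thus leaned higher for T2 and T1, and whether those libraries are paired was not tested. Counts of occupied genes moved with the settings, given here as ligand then receptor genes in at least 2 libraries (main values 11 and 12 for Bcl11a, 18 and 22 for Spi1 KO-iMOS, 15 and 19 for Spi1 WT-iMOS). Lists of equal length gave 6 and 6 for Bcl11a, 5 and 8 for KO-iMOS and 7 and 8 for WT-iMOS. With 50 kb on either side they were 21 and 28, 29 and 34, and 27 and 32, and gene bodies alone gave 2, 7 and 3 ligand genes. A −log10 q of at least 5 gave 7 Bcl11a receptor genes, and a peak in at least 0.5 of the libraries 4 and 6. Without Bcl11a T1 replicate 2 the Bcl11a counts were 5 and 7, without T1 replicate 3 the ligand count was 4, and without both, chosen after the data were seen, they were 3 and 6. Leaving out 1 library gave ranges of 4 to 11 and 7 to 12 for Bcl11a, 12 to 18 and 16 to 21 for KO-iMOS and 13 to 15 and 14 to 19 for WT-iMOS. The difference from genes of like length ranged over -2.13 to -0.510 points for Bcl11a, -4.26 to -1.55 for KO-iMOS and 4.43 to 5.58 for WT-iMOS when 1 library was left out. It was 1.47 for KO-iMOS with lists of equal length, -8.33 for KO-iMOS and -1.06 for WT-iMOS with gene bodies alone, and 4.25 and 12.8 with 50 kb on either side. With sides assigned by role, a choice made after the data were seen, the counts were 8 and 13, 15 and 23, and 13 and 19. Signs turned for Il17a and Il4i1b (Bcl11a minus Spi1 0.167 each) and Il2ra (T2 minus T1 0.125) with lists of equal length, and for Il31ra (KO-iMOS minus WT-iMOS 0.0833) with 50 kb; their cause was not tested. Of 906 single-gene values, 840 kept their sign, 62 became 0 and these 4 turned. Many of the 840 were fixed in advance. The genes were chosen for a difference of at least 0.5, which leaving out 1 library could not turn. Runs that changed only blocks or strata repeat the same difference. The 840 are therefore no measure of how firm the signs are. The size of the values that kept their sign was not compared.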
